A study of Drosophila melanogaster with 16 samples.

Results

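The cuticle protein genes of Drosophila melanogaster were taken by symbol, as every gene whose name begins with Cpr and a number, with Lcp, with Twdl or with Ccp84. The rule found 113 genes of 16074 in the deposited tables, of which 67 were Cpr genes, 17 Lcp genes, 22 Twdl genes and 7 Ccp84 genes. The table of autosomal aneuploidy lists 110 of them and the table of sex chromosome aneuploidy 95, with 92 in both. All 113 were found in the reference annotation (Ensembl BDGP6, the same Release 6 assembly that the authors aligned to). It lists 110 of them as protein-coding and 3 as pseudogenes, and the pseudogenes were counted as members throughout.

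The study asked how the Male Specific Lethal complex, whose limiting subunit MSL2 is made ectopically from a transgene, acts on gene expression when a chromosome or an arm is present in an extra copy. Larvae were grown at 25 °C and taken whole in the third instar, and their RNA was sequenced. The labels list 3 libraries each of MSL2-trisomy 2L males, trisomy 2L males, MSL2-trisomy 2L females and trisomy 2L females, and 2 libraries each of MSL2-metafemales and metafemales. MSL2-trisomy 2L larvae came from y; C(2L)dp; F(2R) bw mothers and fathers homozygous for MSL2 transgenes on 2R, and trisomy 2L larvae from the same mothers and Canton S fathers. All of these larvae carry 3 copies of arm 2L, and the males are XY and the females XX. MSL2-metafemales (XXX) came from C(1)DX, ywf/winscy mothers and the same transgenic fathers, and metafemales from those mothers and Canton S fathers. The diploid males and diploid females of both tables are larvae of the Canton S stock and are not among the labelled libraries. The diploids thus also differ from the aneuploids in stock, and the MSL2 larvae differ from the other aneuploids in the whole paternal genome.

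Each table holds 1 mean for each group in CPM, read counts scaled to the mapped reads of a library, so no replicate error, replicate number or test can be given for any value here. Ratios are those of the means. A gene is said to have risen or fallen where the ratio was at least 2-fold, a limit of size that carries no error. The means of a group summed to between 882368 and 1062342 CPM. The diploids were sequenced only with short single-end reads and the MSL2 groups only with longer paired-end reads, while trisomy 2L and metafemales were sequenced in both ways. The authors adjusted for this with ComBat, and the sources do not state which libraries entered each mean, so batch and group cannot be told apart in these tables. The tables were also normalized separately, and values are compared only within a table unless stated.

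The cuticle is the outer coat of the larva, secreted by the epidermis and rebuilt at each molt from chitin fibres and the proteins bound to them. Most Cpr, Lcp and Ccp84 proteins carry the Rebers-Riddiford domain, which binds chitin, whereas Tweedle (Twdl) proteins form a separate insect family that takes part in the shape of the body. Different sets of these genes are used in different stages and body regions, and their transcription around each molt follows the pulses of ecdysone, so their levels in whole larvae depend on stage as well as on the share of epidermis. In whole larvae, fewer epidermal cells and less RNA per cell cannot be told apart.

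The members were packed in the genome. Where neighbouring members no more than 50 kb apart were joined, 83 of the 113 lay in 15 clusters of at least 3 genes and 30 were dispersed. The largest was the 65A cluster, with 18 Lcp and Cpr genes at 3L:6130386-6161589. By arm, 45 members lay on 3L, 28 on 3R, 26 on 2R, 8 on X and only 6 on 2L, the arm that is trisomic in the autosomal groups. They were short genes. Their median exonic length was 837 bases, against 1718 bases over the genes of the tables that were matched to the annotation, 12233 of 16074. Of the protein-coding members 59.1% had 2 exons, against 21.7% of the protein-coding genes so matched. Among the 92 members whose coding sequence is split by an intron, the first coding exon held only 9 to 15 coding bases in 55 genes (59.8%), against 3.35% of all split genes. It held exactly 12 bases in 37 of the 92, including all 7 Ccp84 genes and Lcp1, Lcp2, Lcp3 and Lcp4.

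Larval cuticle genes dominated the family. Lcp1, Lcp2, Lcp3 and Lcp4, the major cuticle protein genes of the larva in the third instar, lie together at 2R:8430115-8438495 and made up between 67.5% and 82% of the summed CPM of all members in each of the 10 group means. Per kilobase of exon, Lcp4 was the highest member in 8 group means and Lcp3 in the other two, which were MSL2-trisomy 2L females (6646 CPM per kb for Lcp3, against 6107 for Lcp4) and metafemales (5213 against 4956). At the other end, 42 of 110 members stayed under 1 CPM in every group of the autosomal table and 30 of 95 in the sex chromosome table. Only 23 and 18 members reached 100 CPM in any group of these tables.

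The summed level of all members was 14975 CPM in MSL2-trisomy 2L males, 19774 CPM in trisomy 2L males and 20644 CPM in diploid males. In females it was 16602 CPM in MSL2-trisomy 2L, 19820 CPM in trisomy 2L and 22675 CPM in diploids. The corresponding sums of the sex chromosome table were 17895 CPM in MSL2-metafemales, 12146 CPM in metafemales, 22225 CPM in diploid males and 13914 CPM in diploid females. None of these sums differed by 2-fold from the diploid sum of the same sex and table. Single members moved much more, and in both directions.

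**Figure D1:**
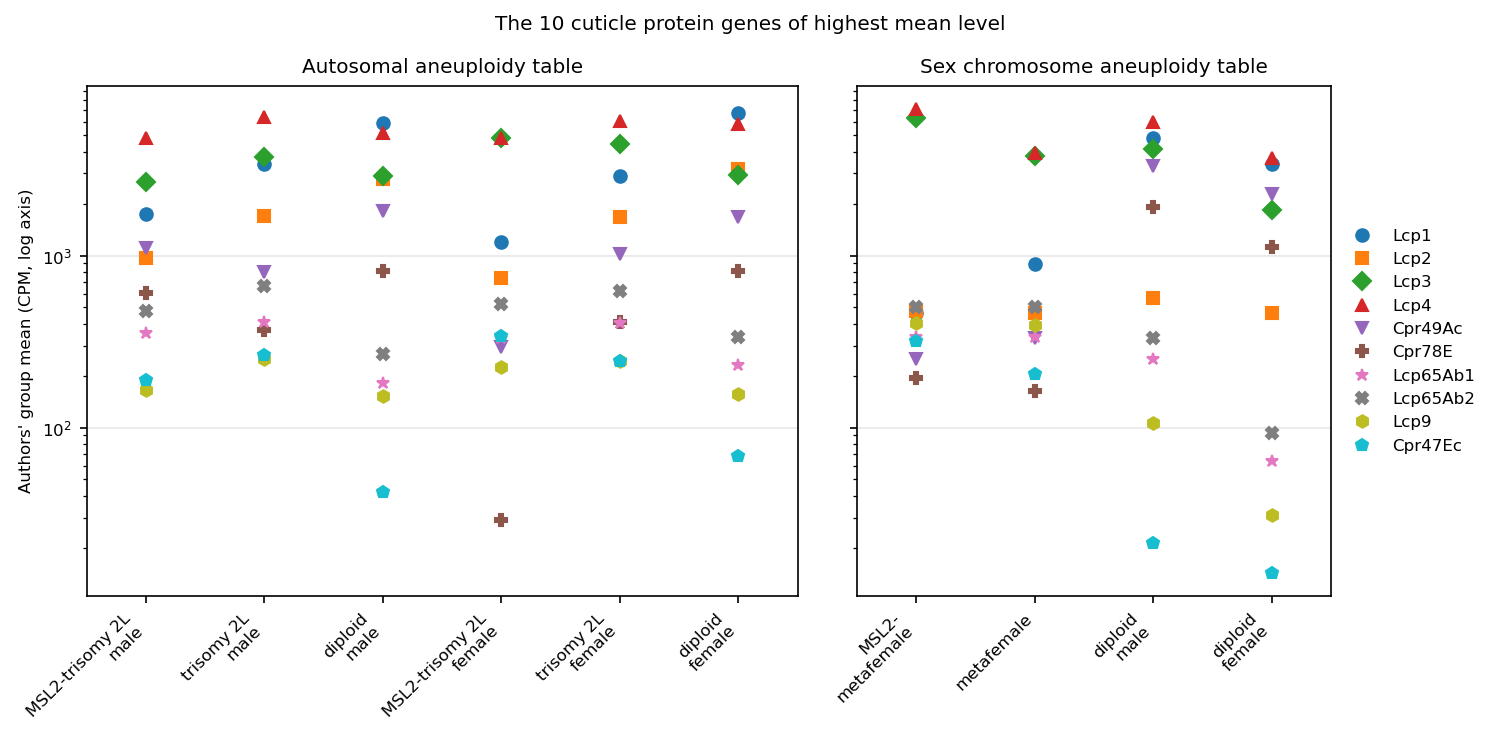
Group means of the 10 members with the highest geometric mean in the autosomal table, as CPM on a log axis, in the 6 group means of the autosomal table (left) and the 4 of the sex chromosome table (right). Each point is 1 mean with no error. Lcp4 (red triangles) stays between 3701 and 7089 CPM in all of them, while Lcp1 (blue circles) is lower in every aneuploid mean than in the diploid means of its table.

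Lcp1 and Lcp3, though neighbours, differed in their levels across groups. Lcp1 had 1732 CPM in MSL2-trisomy 2L males, 3391 CPM in trisomy 2L males and 5880 CPM in diploid males. In females it had 1201 CPM in MSL2-trisomy 2L, 2908 CPM in trisomy 2L and 6695 CPM in diploids. In the sex chromosome table Lcp1 had 465 CPM in MSL2-metafemales and 889 CPM in metafemales, against 4811 CPM in diploid males and 3386 CPM in diploid females. Lcp1 was therefore lower in each aneuploid mean than in the diploid of its sex, and lower again in each mean with MSL2. It fell by the 2-fold limit in trisomy 2L females (0.434 of the diploid mean) and metafemales (0.262), and in MSL2-trisomy 2L females against trisomy 2L females (0.413). The ratio was 0.577 in trisomy 2L males.

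Lcp3 had 2666 CPM in MSL2-trisomy 2L males, 3763 CPM in trisomy 2L males and 2900 CPM in diploid males, and 4852 CPM in MSL2-trisomy 2L females, 4436 CPM in trisomy 2L females and 2933 CPM in diploid females. It rose in metafemales, with 3806 CPM against 1840 CPM in diploid females, and stood at 6306 CPM in MSL2-metafemales. Its neighbour Lcp4 passed the 2-fold limit in no comparison of aneuploid with diploid larvae or of MSL2 with its control. Lcp1 and Lcp2, and likewise Lcp3 and Lcp4, are close copies of each other, and how the counting divided reads between copies is uncertain. Lcp2 had 3195 CPM in diploid females of the autosomal table and 464 CPM in those of the sex chromosome table, which were normalized separately, and the sum of Lcp1 and Lcp2 had 9890 and 3851 CPM in these means.

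Summed over each pair, the copies gave the same picture. The ratio of Lcp3 and Lcp4 together to Lcp1 and Lcp2 together was 2.78 in MSL2-trisomy 2L males, 1.99 in trisomy 2L males and 0.928 in diploid males. In females it was 4.99 in MSL2-trisomy 2L, 2.3 in trisomy 2L and 0.881 in diploids. In the sex chromosome table it was 14.2 in MSL2-metafemales and 5.72 in metafemales, against 1.88 in diploid males and 1.44 in diploid females. Within each table every aneuploid mean thus lay above both diploid means, and each MSL2 mean above its own control. A ratio within a mean does not depend on the scaling of that mean to its total. It can still depend on the batch adjustment, which acts on each row separately, and batch and group cannot be told apart here.

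The salivary glue genes moved beside this ratio. Glue proteins are made by the salivary gland late in the third instar, after a pulse of ecdysone, and mark larvae that approach pupariation. The 7 glue genes summed to 11912 CPM in MSL2-trisomy 2L males, 8404 CPM in trisomy 2L males and 27636 CPM in diploid males. In females they summed to 814 CPM in MSL2-trisomy 2L, 8286 CPM in trisomy 2L and 28570 CPM in diploids. In the sex chromosome table they summed to 2100 CPM in MSL2-metafemales and 3930 CPM in metafemales, against 58324 CPM in diploid males and 41612 CPM in diploid females. The means with the least glue transcript were those with the highest share of Lcp3 and Lcp4 in each table. The order did not hold throughout, since MSL2-trisomy 2L males had both more glue transcript and a higher ratio than trisomy 2L males or females, and diploid males of the sex chromosome table more of both than diploid females.

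**Figure D2:**
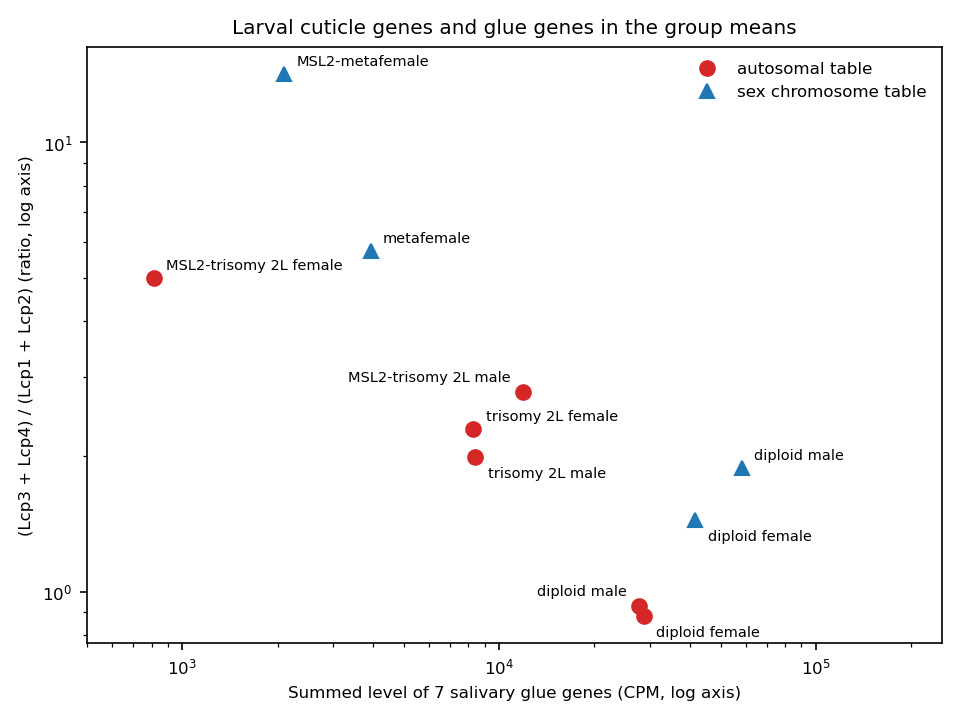
Ratio of Lcp3 and Lcp4 to Lcp1 and Lcp2 (vertical, log axis) against the summed CPM of 7 salivary glue genes (horizontal, log axis), 1 point for each group mean, red circles for the autosomal and blue triangles for the sex chromosome table. The diploid means lie at the lower right and MSL2-metafemales and MSL2-trisomy 2L females at the upper left of their tables.

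Other genes tied to stage were less uniform. Of the 17 ecdysone response genes found, 14 fell and none rose in metafemales against diploid females, whereas in trisomy 2L females none fell and 2 rose, and in trisomy 2L males 5 fell and 1 rose. Of all genes 18.1% fell and 11.6% rose in metafemales, 12.3% and 14.5% in trisomy 2L females, and 19.3% and 13.9% in trisomy 2L males. With MSL2, 7 of 17 rose in trisomy 2L males, against 5.88% of all genes, and 6 of the 16 with both means fell in trisomy 2L females, against 11.2%. Pcp, a pupal cuticle protein gene that is not a member by name, had 144 CPM in MSL2-trisomy 2L males, 94.3 CPM in trisomy 2L males and 214 CPM in diploid males, and 55 CPM in MSL2-trisomy 2L females, 125 CPM in trisomy 2L females and 177 CPM in diploid females. In metafemales it had 46.7 CPM, against 614 CPM in diploid females. The part of developmental age in the results on the members was not tested.

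Another group of abundant members was lower in aneuploid larvae. Cpr78E (3L:21666452-21666980) had 370 CPM in trisomy 2L males against 812 CPM in diploid males, and 410 CPM in trisomy 2L females against 810 CPM in diploid females. In metafemales it had 164 CPM, against 1115 CPM in diploid females. MSL2 accompanied opposite values in the sexes, with 605 CPM in MSL2-trisomy 2L males but only 28.9 CPM in MSL2-trisomy 2L females. The ratio to trisomy 2L was therefore 1.64 in males and 0.0704 in females, the lowest ratio in females among members that reached 1 CPM in either group.

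Cpr49Ac, by far the highest gene of the 49A cluster on 2R, followed the same course. It had 1107 CPM in MSL2-trisomy 2L males, 806 CPM in trisomy 2L males and 1815 CPM in diploid males, and 294 CPM in MSL2-trisomy 2L females, 1023 CPM in trisomy 2L females and 1668 CPM in diploid females. In the sex chromosome table Cpr49Ac had 252 CPM in MSL2-metafemales and 330 CPM in metafemales, against 2275 CPM in diploid females. Not all of its neighbours did. Cpr49Ag had between 30.4 and 55.1 CPM in the autosomal table, and Cpr49Af rose in metafemales, with 107 CPM against 25.9 CPM in diploid females. Cpr12A on the X had values like those of Cpr78E with MSL2, 44.4 CPM in MSL2-trisomy 2L males and 33.5 CPM in trisomy 2L males, but 12.1 CPM in MSL2-trisomy 2L females and 35.6 CPM in trisomy 2L females.

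Across all members, rises were more frequent than falls in trisomy 2L. In males 32 of the 103 members with both means rose (31.1%) and 7 fell (6.8%), against 13.9% and 19.3% of all genes. In females 25 of 97 rose (25.8%) and 12 fell (12.4%), against 14.5% and 12.3% of all genes. The median log2 ratio of members was 0.23 in males and 0.16 in females, and that of all genes -0.19 and -0.10. Among members of at least 1 CPM in either group, 25 of 63 rose and 3 fell in males, and 24 of 62 rose and 3 fell in females. The shares of all genes at that level were 13.9% and 18.1% in males and 14.8% and 7.95% in females. The falls counted over all members were thus largely of genes under 1 CPM. The 3 in males were Cpr65Ec, Cpr49Ac and Cpr78E, and the 3 in females Cpr49Ah, Lcp1 and Cpr11B.

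The sexes gave like ratios. Over the 94 members with all 4 means, Pearson's r between the log2 trisomy 2L to diploid ratios of males and of females was 0.88 and Spearman's rho 0.84, as a description over genes that share clusters and libraries. Over all 13441 genes the values were 0.59 and 0.63. In both sexes 22 members rose, which were 73.3% of those that rose in males and 91.7% of those that rose in females, where the shares over all genes were 59.4% and 59.3%. Of the 94 members 1 fell in both sexes, Cpr49Aa, a gene under 1 CPM in this table, and 1 rose in 1 sex and fell in the other, TwdlM. Of the 13441 genes 823 fell in both and 211 went opposite ways.

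**Figure D3:**
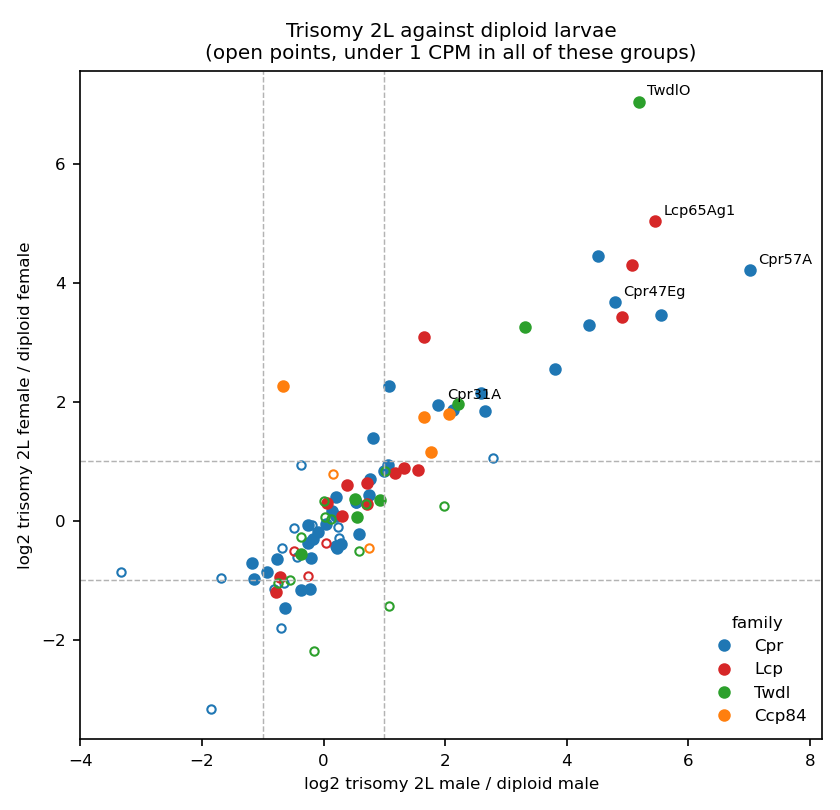
Log2 ratios of trisomy 2L to diploid means in males (horizontal) and females (vertical) for the 94 members with all 4 means, coloured by family. Filled points reached 1 CPM in at least 1 of the 4 means, open points did not, and dashed lines mark 2-fold. Most of the filled points past 2-fold lie at the upper right, and none at the lower left.

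The members that rose most were low in diploids. Lcp65Ag1 had 73.1 CPM in trisomy 2L males against 1.66 CPM in diploid males, and 84.5 CPM in trisomy 2L females against 2.57 CPM in diploid females. Cpr47Eg in the 47E cluster of 2R had 163 CPM in trisomy 2L males against 5.88 CPM in diploid males, and 142 CPM in trisomy 2L females against 11.1 CPM in diploid females. Cpr47Ec, its neighbour, had 265 CPM against 42.3 CPM in males and 245 CPM against 68.1 CPM in females. The close copies Cpr67Fa1 and Cpr67Fa2 together had 78.6 CPM in trisomy 2L males against 3.59 CPM in diploid males, and 81.5 CPM in trisomy 2L females against 5.4 CPM in diploid females.

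Within the 65A cluster the genes split. Its summed level was 1597 CPM in trisomy 2L males against 593 CPM in diploid males, and 1550 CPM in trisomy 2L females against 772 CPM in diploid females. In males 9 of 18 genes rose and in females 6 of 17, and none fell in either sex. Of all genes 13.9% rose and 19.3% fell in males, and 14.5% and 12.3% in females. In both sexes the rises lay at the start of the cluster, in Lcp65Ag3, Lcp65Ag2, Lcp65Ag1 and Lcp65Ae, and again further along in Cpr65Ax1 and Cpr65Ax2. Lcp65Ag1 and Lcp65Ag2 together had 90.4 CPM in trisomy 2L males against 2.24 CPM in diploid males, and 101 CPM in trisomy 2L females against 4.07 CPM in diploid females. Cpr65Ax1 and Cpr65Ax2 together had 151 CPM against 6.26 CPM in males and 143 CPM against 17.6 CPM in females.

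Other genes a few kilobases away stayed near the diploid level. Cpr65Av had 33.2 CPM in trisomy 2L males against 37.5 CPM in diploid males, and 35.7 CPM in trisomy 2L females against 44.2 CPM in diploid females. Cpr65Aw and Cpr65Ay also remained under 2-fold in trisomy 2L. The most abundant pair of the cluster, Lcp65Ab1 and Lcp65Ab2, had 1081 CPM in trisomy 2L males against 448 CPM in diploid males, and 1028 CPM in trisomy 2L females against 567 CPM in diploid females, a rise by the 2-fold limit in males (2.41) but not in females (1.81). Lcp65Ag3 and Cpr65Au overlap an antisense RNA gene, and since the sources do not state that counting used strand, their reads cannot be told from its reads.

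**Figure D4:**
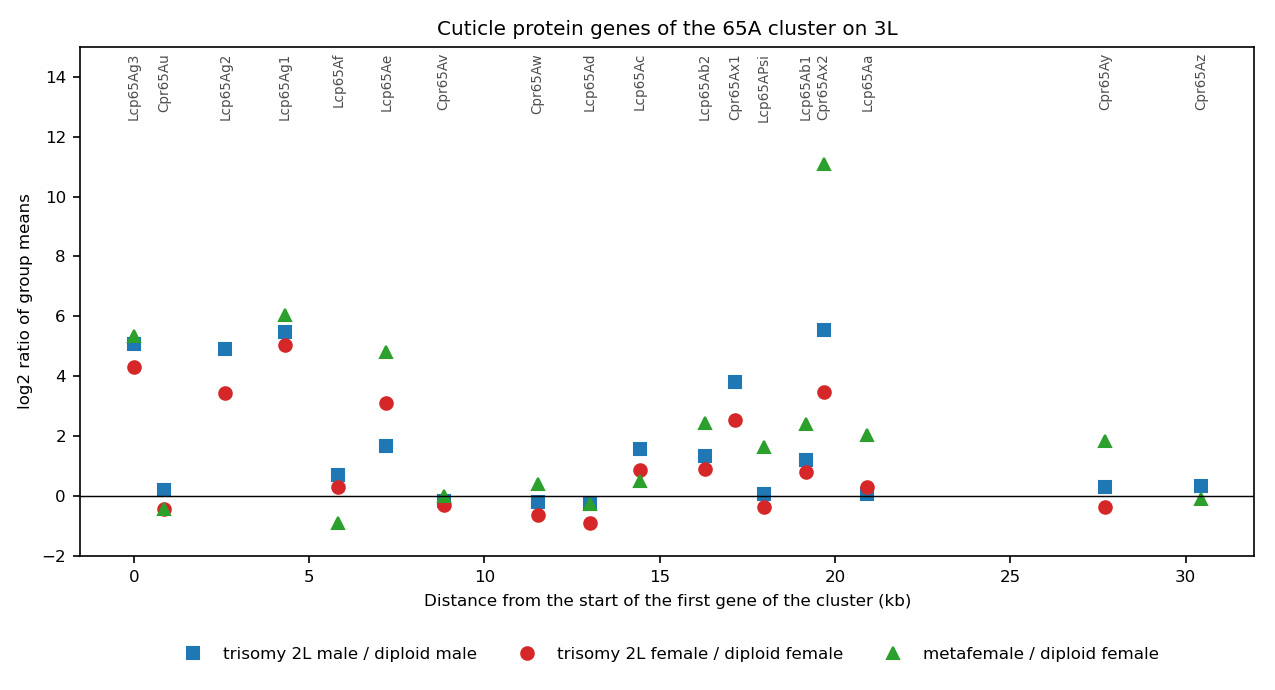
Log2 ratios of aneuploid to diploid means for the 65A cluster on 3L, placed by distance in kb from the start of its first gene. Blue squares are trisomy 2L males, red circles trisomy 2L females and green triangles metafemales, each over the diploid of its sex, and the line is a ratio of 1. The genes with the largest ratios lie at the left end and near the middle, and Cpr65Ax2 in metafemales stands highest because its diploid mean is only 0.009 CPM.

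The Ccp84 genes, a cluster of 7 at 3R:6686728-6704903, summed to 24.2 CPM in trisomy 2L males against 8.09 CPM in diploid males, and 25.1 CPM in trisomy 2L females against 9.45 CPM in diploid females. Ccp84Ab, Ccp84Ad and Ccp84Ag rose in both sexes. Ccp84Ab, for one, had 5.89 CPM against 1.42 CPM in males and 6.15 CPM against 1.77 CPM in females. Acp1, an adult cuticle gene outside the rule, had 4.22 CPM in trisomy 2L males against 1.04 CPM in diploid males.

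Among Tweedle genes 6 of 21 rose and none fell in trisomy 2L males, and 3 of 19 rose and 3 fell in females, against 13.9% and 19.3% of all genes in males and 14.5% and 12.3% in females. TwdlP had 13.5 CPM in trisomy 2L males against 1.36 CPM in diploid males, and 9.32 CPM in trisomy 2L females against 0.973 CPM in diploid females. TwdlO, in the same 3R cluster, had 3.25 CPM against 0.0891 CPM in males and 8.64 CPM against 0.0652 CPM in females, where the size of the ratio rests on diploid means near 0. The 3R cluster from TwdlU to TwdlV did not move with it, with 4.9 CPM in trisomy 2L males against 4.68 CPM in diploid males, and 4.12 CPM in trisomy 2L females against 4.75 CPM in diploid females.

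The smaller clusters differed among themselves. In the 62B cluster Cpr62Bc had 27 CPM in trisomy 2L males against 6.16 CPM in diploid males, and 29.3 CPM in trisomy 2L females against 8.02 CPM in diploid females. In the 78C cluster Cpr78Cc had 15.6 CPM in trisomy 2L females against 5.88 CPM in diploid females, whereas its neighbour Cpr78Ca had 7.95 CPM against 14.4 CPM. Cpr97Ea stayed near the diploid level, with 3.61 CPM in trisomy 2L males against 2.15 CPM in diploid males, and 4.08 CPM in trisomy 2L females against 3.01 CPM in diploid females. The 72E and 76B clusters were nearly silent, with sums of at most 2.82 and 1.78 CPM in any group of the autosomal table.

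The extra copy of 2L itself touched few members with a measurable level. Of the 6 members on 2L only Cpr31A (2L:10054213-10055935) and TwdlE exceeded 1 CPM in any group. Cpr31A had 11.1 CPM in trisomy 2L males against 3 CPM in diploid males, and 8.19 CPM in trisomy 2L females against 2.11 CPM in diploid females, a ratio of 3.71 and 3.88. TwdlE, which overlaps lectin-28C, had 0.41 CPM against 0.692 CPM in males and 0.327 CPM against 0.673 CPM in females. The rises were therefore mainly of genes outside the trisomic arm. Of the members on 2R, 3L and 3R, 29 of 91 rose and 6 fell in males, against 11.5% and 21.7% of all genes on these arms. In females 22 of 87 rose and 10 fell, against 12.2% and 13.7%.

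In metafemales, where the X is the extra chromosome, 33 of 88 members rose (37.5%) and 23 fell (26.1%) against diploid females, compared with 11.6% and 18.1% of all genes. Among members of at least 1 CPM in either group 25 of 60 rose and 16 fell, against 11.2% and 17.8% of all such genes. The spread of members was wide, with an interquartile range of 3.08 on the log2 scale, against 1.17 for all genes. Lcp9 had 394 CPM in metafemales against 31 CPM in diploid females, although diploid males of the same table had 107 CPM. Lcp9 overlaps an antisense RNA gene. The pair Lcp65Ab1 and Lcp65Ab2 had 840 CPM in metafemales against 157 CPM in diploid females, and diploid males had 583 CPM.

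The largest ratios again went with low diploid levels. Cpr62Bc had 24.5 CPM in metafemales against 0.436 CPM in diploid females, and Lcp65Ag1 13.3 CPM against 0.202 CPM. Cpr47Eg had 30.8 CPM, Cpr65Ax1 16.4 CPM, Lcp65Ag2 5.59 CPM and TwdlP 1.15 CPM in metafemales, with no mean listed for diploid females, so no ratio was formed. Among the members that fell, Cpr64Aa had 0.881 CPM in metafemales against 5.65 CPM in diploid females, and Cpr12A 9.8 CPM against 49.6 CPM.

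The X-linked members did not move as 1 block. Cpr11A (X:12486970-12489448) had 93.3 CPM in metafemales against 16.8 CPM in diploid females, and TwdlX (X:16731091-16732630) 55.4 CPM against 5.13 CPM. Both also rose in trisomy 2L, where the X has its normal copy number. Cpr11A had 91.5 CPM in trisomy 2L males against 15.2 CPM in diploid males, and 80.8 CPM in trisomy 2L females against 18.2 CPM in diploid females. By contrast Cpr11B had 18 CPM in metafemales against 34.4 CPM in diploid females.

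Trisomy 2L and metafemales stand in different tables with their own diploid means and share no column. Of the 78 members with all means, 13 rose in trisomy 2L males, trisomy 2L females and metafemales (16.7%), against 2.61% of 12552 genes. These were Ccp84Ab, Ccp84Ad, Cpr11A, Cpr31A, Cpr47Ec, Cpr62Bc, Cpr65Ax2, Cpr67Fa1, Cpr67Fa2, Lcp65Ae, Lcp65Ag1, Lcp65Ag3 and TwdlX. Only Cpr49Aa fell in all of them (1.28%, against 1.91% of all genes).

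**Figure D5:**
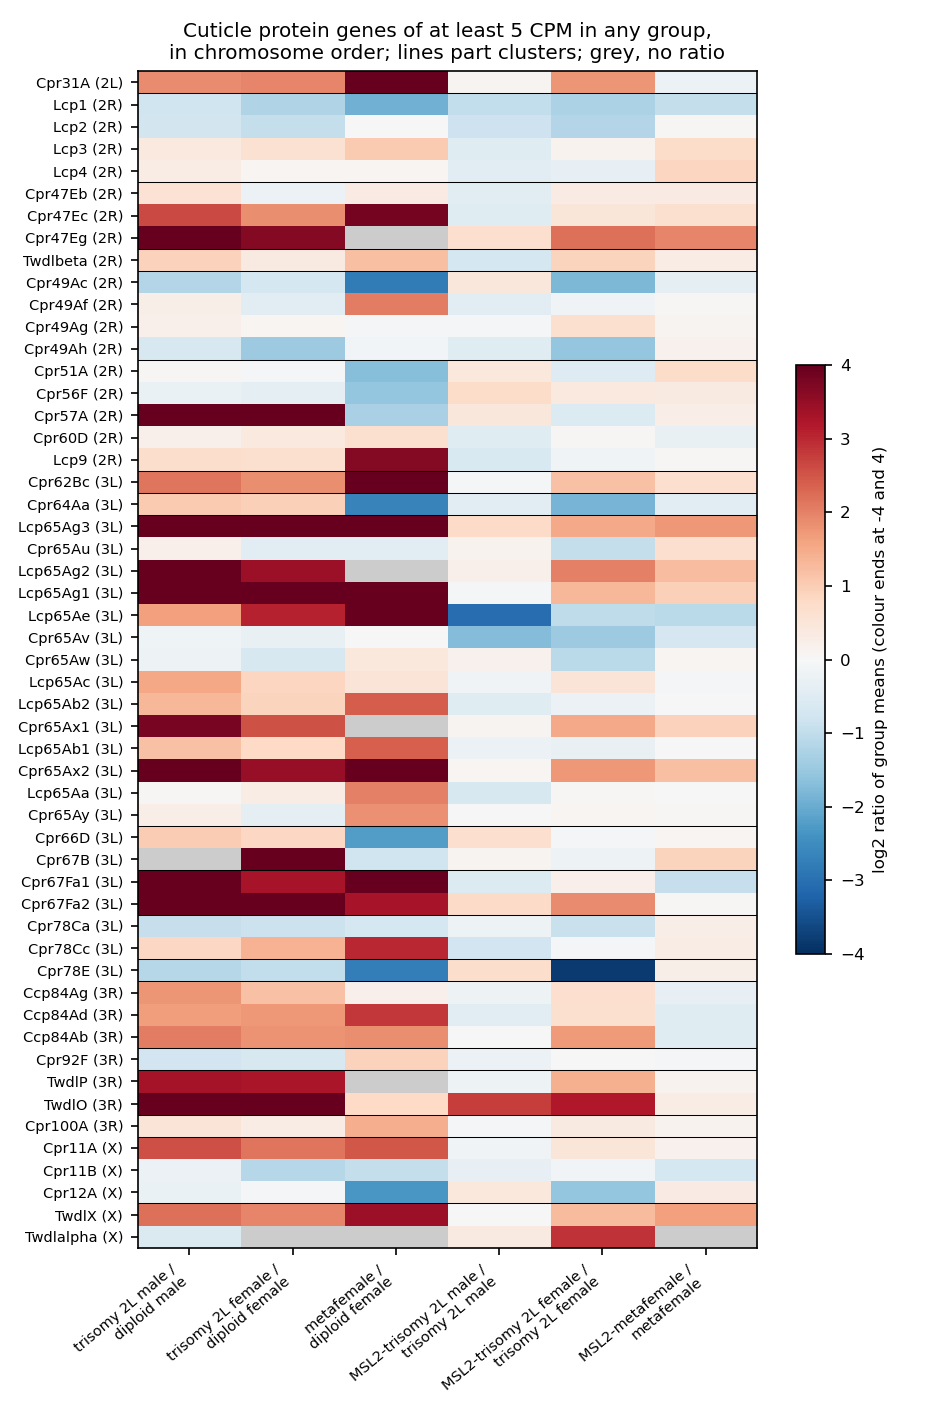
Log2 ratios of group means for the 53 members of at least 5 CPM in any group, in chromosome order with the arm in brackets, for the aneuploid to diploid comparisons (left 3 columns) and MSL2 against its control (right 3 columns). Red is higher and blue lower in the first-named group, colours end at -4 and 4, and grey marks a ratio that could not be formed. Lcp65Ag1 is dark red in all 3 left columns, and few members are past 2-fold in the MSL2 column of trisomy 2L males.

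MSL2 in trisomy 2L was accompanied by larger differences in females than in males. In males 9 of 104 members rose and 9 fell against trisomy 2L (8.65% each), where 5.88% and 5.39% of all genes did. Of the 63 members of at least 1 CPM in either group only 2 rose, Cpr65Ec and TwdlO, and 2 fell, Lcp65Ae and Cpr65Av, against 3.35% and 3.63% of all such genes. In females 17 of 100 rose and 17 fell (17% each), against 7% and 11.2% of all genes, and of the 66 members of at least 1 CPM 15 rose and 10 fell, against 4.9% and 9.14%. The difference between the sexes could not be tested.

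The genes that rose with MSL2 in females were largely low in diploids. Lcp65Ag1 and Lcp65Ag2 together had 277 CPM in MSL2-trisomy 2L females against 101 CPM in trisomy 2L females. In males the same sum was 89.6 CPM with MSL2 and 90.4 CPM without. Cpr65Ax1 and Cpr65Ax2 together had 448 CPM in MSL2-trisomy 2L females against 143 CPM in trisomy 2L females, and 159 CPM against 151 CPM in males. Cpr47Eg had 648 CPM in MSL2-trisomy 2L females against 142 CPM in trisomy 2L females, and 261 CPM against 163 CPM in males.

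The same held for members on other arms. Cpr31A on 2L had 27.6 CPM in MSL2-trisomy 2L females against 8.19 CPM in trisomy 2L females, but 12.1 CPM against 11.1 CPM in males. TwdlX on the X had 149 CPM against 61.4 CPM in females and 40.4 CPM against 41 CPM in males. Ccp84Ab had 19.8 CPM against 6.15 CPM in females and 5.86 CPM against 5.89 CPM in males. TwdlO rose in both sexes, with 22 CPM in MSL2-trisomy 2L males against 3.25 CPM in trisomy 2L males, and 79.1 CPM in MSL2-trisomy 2L females against 8.64 CPM in trisomy 2L females.

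With MSL2 5 members fell in both sexes (71.4% of those that fell in males and 31.2% of those that fell in females), and 2 rose in both (33.3% and 11.8%). Over all genes these shares were 27.9% and 11.1% for falls and 27.3% and 18.9% for rises. Of the 5, Cpr65Av had 9.94 CPM in MSL2-trisomy 2L males against 33.2 CPM in trisomy 2L males, and 13.1 CPM in MSL2-trisomy 2L females against 35.7 CPM in trisomy 2L females. Lcp65Ae had 0.909 CPM against 7.59 CPM in males and 4.51 CPM against 9.07 CPM in females. Lcp1 and Lcp2 were not among the 5. Together they had 2698 CPM in MSL2-trisomy 2L males against 5096 CPM in trisomy 2L males (0.529), short of the 2-fold limit. In females they had 1943 CPM in MSL2-trisomy 2L against 4579 CPM in trisomy 2L (0.424). Over the 95 members with all 4 means Pearson's r between the log2 MSL2 ratios of the sexes was 0.31 and Spearman's rho 0.19, against 0.13 and 0.063 over 12160 genes, given as descriptions.

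In MSL2-metafemales 9 of 84 members rose against metafemales (10.7%) and 3 fell (3.57%), where 7.18% and 7.75% of all genes did. Of the 57 members of at least 1 CPM, 6 rose and 1, Lcp65Ae, fell, against 5.78% and 5.48% of all such genes. Cpr47Eg had 119 CPM in MSL2-metafemales against 30.8 CPM in metafemales, Lcp65Ag3 35.4 CPM against 10.7 CPM and TwdlX 173 CPM against 55.4 CPM. Cpr65Ax1 and Cpr65Ax2 together had 76.5 CPM against 36 CPM. Lcp3 and Lcp4 together had 13395 CPM in MSL2-metafemales against 7731 CPM in metafemales, a ratio of 1.73. Unlike in trisomy 2L females, Cpr78E did not fall, with 193 CPM in MSL2-metafemales and 164 CPM in metafemales. The means of MSL2-metafemales sum to 1062342 CPM, more than any other column, and with equal totals the median log2 ratio of members was -0.15 in place of 0.12, and 7 members rose and 7 fell. With equal totals 5.17% of all genes rose and 12% fell.

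The MSL2 groups were also set against diploids directly. In MSL2-trisomy 2L males 31 of 98 members rose and 15 fell, against 16.4% and 20.9% of all genes, and in MSL2-trisomy 2L females 32 of 90 rose and 21 fell, against 18.3% and 22.3%. In MSL2-metafemales 32 of 78 rose and 20 fell, against 14.4% and 24.7%. These comparisons share their diploid means with those above and also set paired-end against single-end libraries.

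Between the sexes, members of the autosomal table were closer in diploids and in trisomy 2L than with MSL2. Of 94 members of the autosomal table, 4 rose and 7 fell in diploid males against diploid females, where 22.9% and 4.11% of all genes did. In trisomy 2L 13 of 108 were higher in males and 4 lower, against 24% and 3.19% of all genes. Of those of at least 1 CPM in either group, only Twdlalpha was higher in males, with 6 CPM in trisomy 2L males against 0.592 CPM in trisomy 2L females, and it overlaps CG32568. At that level 21.4% of all genes were higher in trisomy 2L males and 2.18% lower. With MSL2 15 of 96 members were higher in males and 24 lower, against 22.8% and 5.24% of all genes. Cpr78E (605 CPM in MSL2-trisomy 2L males against 28.9 CPM in MSL2-trisomy 2L females) and Cpr49Ac (1107 CPM against 294 CPM) were among the higher, and TwdlX (40.4 CPM against 149 CPM) and Lcp65Ae (0.909 CPM against 4.51 CPM) among the lower. Scaled by a trimmed mean of the log2 ratios, 11 were higher and 35 lower with MSL2, against 16.3% and 9.79% of all genes. In diploid males 2 were higher and 12 lower with this scaling, against 20.7% and 6.18%. Of 83 members of the sex chromosome table, 17 were higher in diploid males and 12 lower, against 18.2% and 9.38%. There the sum of all members was 1.6 times as high in diploid males as in diploid females, and 0.91 times as high in the autosomal table.

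Some genes differed in direction between the tables. Cpr57A had 153 CPM in trisomy 2L males against 1.17 CPM in diploid males, and 150 CPM in trisomy 2L females against 8.01 CPM in diploid females. In the sex chromosome table it had 93.8 CPM in metafemales against 232 CPM in diploid females, with 241 CPM in diploid males. Cpr67B had 161 CPM in trisomy 2L females against 6.15 CPM in diploid females, and 139 CPM in trisomy 2L males with no mean listed for diploid males. In the other table it had 87.6 CPM in metafemales against 152 CPM in diploid females. Cpr66Cb, at most 2.19 CPM in any group, rose in trisomy 2L males (2.1) and females (4.82) and fell in metafemales (0.413). Cpr64Aa, Cpr66D and Cpr67Fb also rose in trisomy 2L males and fell in metafemales. The diploids are larvae of the same stock in both tables, so the rises of Cpr57A and Cpr67B in trisomy 2L rest on diploid means that the other table does not share. Cpr57A also overlaps the odorant binding protein gene Obp57d. More generally, of 79 members with both means, 34 were at least 2-fold lower and 10 at least 2-fold higher in diploid females of the sex chromosome table than in those of the autosomal table. In diploid males the numbers were 27 and 10 of 82. Over all genes 11.2% were lower and 21% higher in females, and 20.3% and 11.7% in males.

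Other genes of the cuticle and of other tissues were read beside the members. Of the 21 chitin synthesis and assembly genes, 9 rose and 2 fell in trisomy 2L males, 8 of 20 rose and 1 fell in trisomy 2L females, and 4 of 20 rose and 3 fell in metafemales. For this and the lists below, the shares of all genes that rose and fell were 13.9% and 19.3% in trisomy 2L males. They were 14.5% and 12.3% in trisomy 2L females, and 11.6% and 18.1% in metafemales. The chitin synthase gene kkv had 33.1 CPM in trisomy 2L males against 7.45 CPM in diploid males, and 51.2 CPM in trisomy 2L females against 11.3 CPM in diploid females. Of 12 other cuticle protein genes 7 rose and 2 fell in trisomy 2L males. Of the 10 with both means, 6 rose and 2 fell in trisomy 2L females, and 5 rose and 3 fell in metafemales. The 11 found in the sex chromosome table summed to 568 CPM in metafemales, 0.719 of the 790 CPM in diploid females. Much of the diploid sum was Pcp, with 46.7 CPM in metafemales against 614 CPM in diploid females. In the same comparison CG16884 had 240 CPM against 70 CPM, and CG16885 266 CPM against 87.8 CPM. The 8 genes found for sclerotization and pigment act in the hardening and darkening of cuticle. They summed to 288 CPM in trisomy 2L males against 498 CPM in diploid males, and 508 CPM in trisomy 2L females against 393 CPM in diploid females. In metafemales the sum was 270 CPM, against 949 CPM in diploid females. Of the 8, 0 rose and 2 fell in trisomy 2L males, 2 rose and 0 fell in trisomy 2L females, and 2 rose and 4 fell in metafemales. The gene e alone had 109 CPM in trisomy 2L females against 11.7 CPM in diploid females.

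The 6 epidermal genes, of which kkv, verm and serp are also in the chitin list, summed to 284 CPM in trisomy 2L males against 134 CPM in diploid males, 297 CPM in trisomy 2L females against 160 CPM in diploid females, and 299 CPM in metafemales against 189 CPM in diploid females. Of the 6 genes 2 rose and 1 fell in trisomy 2L males, 3 rose in trisomy 2L females and 1 rose in metafemales. Of all genes 13.9%, 14.5% and 11.6% rose in these comparisons, and 19.3%, 12.3% and 18.1% fell. Most of the sum was serp, with 196 CPM in trisomy 2L males against 70.4 CPM in diploid males. The epidermal regulator grh had 9.35 CPM in trisomy 2L males against 23 CPM in diploid males, 18 CPM in trisomy 2L females against 5.22 CPM in diploid females, and 5.96 CPM in metafemales against 11.4 CPM in diploid females. Of the 8 muscle genes 5 rose in trisomy 2L males, 4 in trisomy 2L females and 7 in metafemales, and none fell. Their sum was 23273 CPM in trisomy 2L males against 10462 CPM in diploid males, 20562 CPM in trisomy 2L females against 13107 CPM in diploid females, and 23612 CPM in metafemales against 6670 CPM in diploid females. Muscle lies directly under the epidermis of the larval body wall. The 6 fat body genes summed to 97258 CPM in trisomy 2L males against 72195 CPM in diploid males, 120274 CPM in trisomy 2L females against 84265 CPM in diploid females, and 58176 CPM in metafemales against 58356 CPM in diploid females. In metafemales 2 of the 6 passed 2-fold upward and 2 downward, among them Lsp1beta (29170 CPM in metafemales against 7460 CPM in diploid females) and Lsp2 (7189 CPM against 21048 CPM). The 9 genes of the midgut list summed highest in MSL2-metafemales, at 71789 CPM, against 21220 CPM in metafemales. There 3 of the 9 rose, against 7.18% of all genes, and Jon99Ciii alone had 46655 CPM in MSL2-metafemales against 5438 CPM in metafemales. Mal-A1 of this list was matched by synonym to the symbol H, which is that of Hairless, so H may not be a midgut gene. H had 29.6 CPM in MSL2-metafemales and 29.5 CPM in metafemales. The part of tissue shares in the results on the members was not tested.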

How the data were processed

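Whole larvae were sequenced in the labelled groups. The 4 columns of diploid means belong to no labelled library and were taken as the authors' means on the same scale. The authors aligned reads with HISAT2 2.1.0 to Release 6, assembled and counted transcripts with StringTie 1.2.2, divided the counts by the mapped reads to give CPM, adjusted the CPM values for batch on a log scale with ComBat (sva 3.36.0), removed values not above 0 and averaged replicates before the tables were deposited. The sources do not say over how many replicates a mean was taken where some were removed. The deposited MSL2-metafemale column was read as a signal scaled like CPM, because its means sum to 1062342, more than CPM allow. The deposited columns of ratios hold the authors' own divisions of group means and were not used. No read counts were used, and the depth behind each mean is unknown.

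Rows were summed per gene symbol. A row without a mean was left out of the sum, and 1 and 2 rows without a gene name stayed out. Log2 ratios of means were formed for 13 comparisons for every gene with both means, and a ratio of at least 2-fold was counted as a rise or fall. The planned tests on library values could not be made, since the tables hold 1 mean for each group. Members, gene lists and rules were chosen with earlier results of these data known. Clusters join members at most 50 kb apart. Exons came from Ensembl BDGP6, to which 12233 of the 16074 genes were matched by name, and positions from the deposited data. Of the names in the lists, Edg84A, Hr46, Henna, aaNAT1 and speck were not matched, and Tb was matched in 1 table. Hr46 is another name of Hr3, and aaNAT1 and speck are other names of Dat, and Hr3 and Dat were found. Mal-A1 was matched by synonym to the symbol H, which is that of Hairless.

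The genes named are the 10 of highest geometric mean in the autosomal table, the 3 largest rises and 3 largest falls of each comparison among members of at least 1 CPM in either group, members on 2L and X of at least 1 CPM, the highest member of each cluster, and members of at least 1 CPM in a group with no mean in another. Neighbours and close copies of these, and genes counted in both sexes, were added after their values were seen. The 9 alternatives were means of at least 1 CPM in either or in both groups, pseudocounts of 0.1 and 1 CPM, equal column totals, a trimmed mean of log2 ratios (30% of ratios and 5% of means at each end), totals without the 100 highest genes, the most abundant row of a gene and only rows with both means. The scripts were checked on simulated data. Figures were drawn with matplotlib 3.10.9, and values computed with pandas 2.3.3, scipy 1.17.1 and numpy 2.4.6 under Python 3.11.15.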

Additional observations from a re-analysis of the deposited data

How the results depend on the processing

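The tables give no spread and no depth, and limits on low means changed most counts. No paired analysis was possible because each group has 1 mean and no library values, and for the same reason neither leaving out replicates nor a replicate block was run. Of 234 counts of members recomputed under the 9 alternatives, 168 stayed within 1.5 times of the value reported and 66 did not. Of 117 medians of members 105 stayed within the rank interval of the median reported, which covers the spread over genes and not error, and of 5117 ratios of named genes 86 moved. Joined at gaps of at most 20 kb, 80 members lay in 14 clusters. Beyond the construction of each alternative, which leaves fewer genes under a limit, the cause of these shifts was not tested.

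With means of at least 1 CPM in either group, the median log2 ratio of members was 0.59 for trisomy 2L over diploid males and 0.62 for females. Percentages in brackets here and below are the shares of all genes at the same setting. Members that fell then numbered 3 of 63 (18.1%) and 3 of 62 (7.95%) in these comparisons. For MSL2-trisomy 2L over trisomy 2L they numbered 2 of 63 (3.63%) in males and 10 of 66 (9.14%) in females. For MSL2-trisomy 2L over diploids they numbered 7 of 63 (20%) in males and 11 of 63 (20.8%) in females, and for MSL2-metafemales over metafemales 1 of 57 (5.48%). Male over female, 2 of 65 fell in trisomy 2L (2.18%) and 4 of 60 in diploids of the autosomal table (3.41%). Members that rose numbered 2 of 63 (3.35%) for MSL2-trisomy 2L over trisomy 2L males. Male over female, they numbered 1 of 65 (21.4%) in trisomy 2L and 9 of 66 (22.1%) in MSL2-trisomy 2L. In diploids they numbered 1 of 60 (22%) in the autosomal table and 8 of 51 (18.1%) in the sex chromosome table.

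With at least 1 CPM in both groups, the medians were 0.59 for trisomy 2L over diploid males and 0.42 for females. Here 2 of 57 members (16.6%) and 3 of 58 (6.87%) fell. For MSL2-trisomy 2L over trisomy 2L 1 rose and 1 fell of 61 in males (2.78% and 2.7%) and 10 of 61 fell in females (7.57%). Over diploids, 19 rose and 5 fell of 57 in MSL2-trisomy 2L males (14.5% and 18.1%), and 11 of 58 fell in MSL2-trisomy 2L females (19%). In MSL2-metafemales 14 rose and 8 fell of 39 (12.5% and 21.7%), and in metafemales also 14 and 8 of 39 (9.7% and 16%). For MSL2-metafemales over metafemales 5 rose and 1 fell of 54 (5.07% and 4.12%). Male over female, 0 rose and 1 fell of 61 in trisomy 2L (7.19% and 1.95%), and 8 of 60 rose in MSL2-trisomy 2L (15.6%). In diploids 1 rose and 3 fell of 55 in the autosomal table (8.98% and 3.23%), and 5 rose and 5 fell of 45 in the sex chromosome table (6.26% and 7.86%).

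With a pseudocount of 0.1 CPM, 4 of 110 fell in trisomy 2L over diploid males (15.3%) and 7 of 108 in the same for females (6.59%). In MSL2-metafemales over metafemales 8 of 95 fell (13.8%), and in MSL2-trisomy 2L over trisomy 2L males 4 of 110 rose (3.45%). Male over female, 5 rose and 2 fell of 110 in trisomy 2L (24.1% and 1.96%), and 8 of 106 rose in diploids of the autosomal table (26.3%). With a pseudocount of 1 CPM, members that fell over diploids numbered 4 of 109 (12.5%) in MSL2-trisomy 2L males and 2 of 110 (11%) in trisomy 2L males. They numbered 11 of 108 (11.9%) in MSL2-trisomy 2L females but 3 of 108 (3.75%) in trisomy 2L females, 12 of 94 (14.9%) in MSL2-metafemales and 11 of 95 (10.2%) in metafemales. With MSL2 over its control 1 rose and 2 fell of 110 in trisomy 2L males (1.74% and 1.98%), and 9 of 109 fell in trisomy 2L females (4.86%). In metafemales 5 rose and 0 fell of 95 (3.27% and 3.15%). Male over female, 1 rose and 2 fell of 110 in trisomy 2L (16.5% and 1.2%). With MSL2 in trisomy 2L, 7 of 109 rose (21.9%). In diploids 2 rose and 4 fell of 106 in the autosomal table (19.3% and 2.08%), with a median of -0.089. In those of the other table, the sex chromosome one, 6 rose and 4 fell of 93 (15% and 5.55%).

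The trimmed mean set the median log2 ratio of all genes between -0.033 and 0.0044, where it was between -0.32 and 0.34 without it. It gave 1 member of 84 that fell in MSL2-metafemales over metafemales (6.65%). Medians of members male over female were -0.20 in trisomy 2L, -0.60 in MSL2-trisomy 2L and -0.39 in diploids of the autosomal table. In these diploids it gave 2 rises and 12 falls of 94 (20.7% and 6.18%). With equal totals the median of MSL2-metafemales over metafemales was -0.15, with 7 falls of 84 (12%), and that of all genes -0.36 in place of -0.095. With totals without the 100 highest genes the median of the same comparison was 0.027, with 6 falls of 84 (9.04%). Male over female it was -0.07 in trisomy 2L and -0.34 in diploids of the autosomal table, with 11 falls of 94 in these diploids (5.65%). The median of trisomy 2L males over females, 0.042 as reported, was thus below 0 with the trimmed mean and without the 100 highest genes, and 0.025 with equal totals.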
